A study of Mus musculus with 12 samples.

Results

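ATAC-seq, in which a transposase cuts and tags open chromatin, was used on 3 subsets of thymic invariant NKT cells (iNKT1, iNKT2, iNKT17) of 8 to 9 week old, untreated C57BL/6 and Hivep3-/- mice, with 2 libraries for each subset and genotype and 12 in all. The Hivep3-/- mice lack Hivep3, which encodes a large zinc finger protein, and had been backcrossed to C57BL/6. Which part of the gene they lack is not given in the sources used here. The subsets were sorted from pooled thymi, combined for the transposition and separated again by ICOS and CD138 (iNKT1 ICOS- CD138-, iNKT2 ICOS+ CD138-, iNKT17 ICOS+ CD138+), while the sample titles number single mice, so that p-values measure the spread between these libraries and may not cover that between animals. The regions described here are the distal ones, chosen from position alone: regions of 500 bp on mm10 that share no base with any gene body in GENCODE vM21 and whose midpoint lies over 100 kb from the start of every protein-coding transcript. The rule held for 2032 of the 63309 regions (3.21%). A further 14312 regions (22.6%) lay outside genes but closer to a start, and 46965 (74.2%) in a gene body. The distance of the distal regions to the nearest start ranged from 100.044 kb to 2140 kb with a median of 168 kb, and the furthest region left out by the distance lay at 99.954 kb.

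Invariant NKT cells recognise lipids presented by CD1d and leave the thymus as effector subsets, among them iNKT1 cells, which depend on T-bet and make interferon-γ, iNKT2 cells, which make IL-4, and iNKT17 cells, which make IL-17. Open chromatin far from genes marks enhancers, silencers, insulators and the starts of noncoding transcripts. Enhancers can act over long distances and can skip genes, so that the nearest gene is a label of position here and not a target. Many genes of T cell development, such as Bcl11b, Gata3, Id2 and Runx1, stand beside gene-poor stretches that hold known long-range enhancers.

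The central 300 bases of 12 distal regions are given first, on the plus strand of GRCm38.p6 (mm10) from RefSeq, since they carry the largest differences described further on. Capitals mark matches to consensus motifs on either strand. The motifs searched were TGANTCA, which the AP-1 dimers of activated T cells bind, AGGTGTGA, the T-box motif of T-bet and Eomes, and AACCACA, the Runt motif of the Runx factors. CAGGAAGT stood for the ETS family with Ets1, CTTTGAA for the TCF factors Tcf7 and Lef1, and TTTTCCA for NFAT, which calcineurin activates. GCGTGGGCG was searched for the Egr factors induced by T cell receptor signals, CAGCTG for E-box proteins, and AGATAA for the GATA family with Gata3. Longer consensus sequences were used for NF-kB, ROR and CTCF. A match is a run of letters and not a bound site. Matches that overlap merge into 1 run of capitals. The first 3 sequences are the distal regions with the largest margin of 1 subset over both others in C57BL/6 cells, for iNKT1 near Flrt2 (T-box and NFAT matches), for iNKT2 near Arhgap20 (TCF matches) and for iNKT17 near Mycn (E-box and ROR matches).
Flrt2, specific to iNKT1, chr12:94083496-94083795: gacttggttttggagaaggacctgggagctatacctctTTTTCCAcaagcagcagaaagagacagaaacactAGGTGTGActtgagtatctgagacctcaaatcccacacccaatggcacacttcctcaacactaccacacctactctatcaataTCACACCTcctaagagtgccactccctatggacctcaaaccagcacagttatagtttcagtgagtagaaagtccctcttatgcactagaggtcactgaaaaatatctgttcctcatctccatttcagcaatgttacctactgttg
Arhgap20, specific to iNKT2, chr9:51575162-51575461: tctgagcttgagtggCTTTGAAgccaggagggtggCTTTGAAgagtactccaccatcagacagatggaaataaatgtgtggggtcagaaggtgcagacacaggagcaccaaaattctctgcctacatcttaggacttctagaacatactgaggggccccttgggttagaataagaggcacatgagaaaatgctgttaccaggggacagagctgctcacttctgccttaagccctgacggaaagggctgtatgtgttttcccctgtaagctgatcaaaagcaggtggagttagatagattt
Mycn, specific to iNKT17, chr12:12827856-12828155: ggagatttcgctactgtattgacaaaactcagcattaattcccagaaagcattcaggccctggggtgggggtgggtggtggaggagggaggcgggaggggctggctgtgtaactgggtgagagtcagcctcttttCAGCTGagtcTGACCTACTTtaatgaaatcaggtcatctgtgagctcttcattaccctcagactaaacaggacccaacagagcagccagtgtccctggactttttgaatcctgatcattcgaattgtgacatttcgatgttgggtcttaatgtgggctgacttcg
The next 4 are the largest rise and the largest fall between genotypes in iNKT1 and in iNKT2 cells. The sequence near Otud4 holds a Runt and an E-box match, the one near Mtx2 an AP-1 and a TCF match and the one near Trib2 an AP-1 match. In the 300 bases near Ttc27 none of these motifs was found, although the whole region of 500 bp holds ETS and GATA matches.
Otud4, rise in iNKT1, chr8:79534335-79534634: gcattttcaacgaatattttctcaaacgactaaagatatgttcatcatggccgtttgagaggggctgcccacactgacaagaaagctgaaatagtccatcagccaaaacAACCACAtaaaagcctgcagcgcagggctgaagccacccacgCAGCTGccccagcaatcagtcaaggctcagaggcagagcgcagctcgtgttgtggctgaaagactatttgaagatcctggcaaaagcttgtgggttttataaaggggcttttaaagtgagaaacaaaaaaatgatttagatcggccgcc
Mtx2, fall in iNKT1, chr2:75101554-75101853: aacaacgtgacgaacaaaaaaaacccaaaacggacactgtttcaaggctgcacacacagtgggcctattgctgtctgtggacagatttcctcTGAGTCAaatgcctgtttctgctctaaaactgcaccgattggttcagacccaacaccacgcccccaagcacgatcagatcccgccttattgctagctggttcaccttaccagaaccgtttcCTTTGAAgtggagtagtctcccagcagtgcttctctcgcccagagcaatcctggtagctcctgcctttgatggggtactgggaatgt
Trib2, rise in iNKT2, chr12:15571666-15571965: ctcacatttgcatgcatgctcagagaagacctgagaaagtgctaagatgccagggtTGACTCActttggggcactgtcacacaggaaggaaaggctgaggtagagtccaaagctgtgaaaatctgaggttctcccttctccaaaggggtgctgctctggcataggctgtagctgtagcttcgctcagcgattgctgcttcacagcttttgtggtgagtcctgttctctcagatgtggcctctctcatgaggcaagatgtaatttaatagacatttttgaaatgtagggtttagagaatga
Ttc27, fall in iNKT2, chr17:74865891-74866190: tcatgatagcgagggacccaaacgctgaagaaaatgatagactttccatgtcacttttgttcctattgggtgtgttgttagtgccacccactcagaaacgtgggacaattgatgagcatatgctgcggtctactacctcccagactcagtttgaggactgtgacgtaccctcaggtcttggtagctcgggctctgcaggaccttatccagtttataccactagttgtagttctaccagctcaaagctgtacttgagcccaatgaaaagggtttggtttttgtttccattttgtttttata
Besides the region near Mtx2, the other 3 distal regions that differed between genotypes in more than 1 subset lie near Smim15 (E-box), Vrk1 (no match) and Adtrp (Runt).
Smim15, opposite changes, chr13:107619548-107619847: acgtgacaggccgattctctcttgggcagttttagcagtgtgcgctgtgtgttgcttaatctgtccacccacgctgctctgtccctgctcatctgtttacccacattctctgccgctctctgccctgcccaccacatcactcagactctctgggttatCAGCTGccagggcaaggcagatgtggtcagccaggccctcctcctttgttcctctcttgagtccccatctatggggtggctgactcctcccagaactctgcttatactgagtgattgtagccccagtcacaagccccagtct
Vrk1, fall in iNKT1 and iNKT2, chr12:106617231-106617530: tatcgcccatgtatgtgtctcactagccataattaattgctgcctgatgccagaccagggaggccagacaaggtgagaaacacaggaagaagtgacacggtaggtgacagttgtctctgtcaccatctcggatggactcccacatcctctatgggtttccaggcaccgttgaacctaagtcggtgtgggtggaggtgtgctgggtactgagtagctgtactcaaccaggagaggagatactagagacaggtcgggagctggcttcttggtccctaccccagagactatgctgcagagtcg
Adtrp, rise in iNKT1 and iNKT2, chr13:41948274-41948573: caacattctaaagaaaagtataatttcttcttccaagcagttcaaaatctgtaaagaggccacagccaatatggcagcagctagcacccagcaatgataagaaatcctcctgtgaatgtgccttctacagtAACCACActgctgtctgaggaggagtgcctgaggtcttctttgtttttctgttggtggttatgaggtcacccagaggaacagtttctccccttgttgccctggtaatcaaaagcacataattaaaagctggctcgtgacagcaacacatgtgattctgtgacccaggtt
The last 2 stand for stretches beside T cell factors, near Runx1 (AP-1) and Maf (ROR).
Runx1, specific to iNKT2, chr16:93109754-93110053: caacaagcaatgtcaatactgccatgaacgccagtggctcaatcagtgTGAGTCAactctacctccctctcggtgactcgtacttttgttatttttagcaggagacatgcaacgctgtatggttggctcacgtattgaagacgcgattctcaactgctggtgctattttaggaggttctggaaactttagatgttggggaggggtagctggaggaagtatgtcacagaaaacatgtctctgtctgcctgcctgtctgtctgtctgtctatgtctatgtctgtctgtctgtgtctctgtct
Maf, specific to iNKT17, chr8:115411850-115412149: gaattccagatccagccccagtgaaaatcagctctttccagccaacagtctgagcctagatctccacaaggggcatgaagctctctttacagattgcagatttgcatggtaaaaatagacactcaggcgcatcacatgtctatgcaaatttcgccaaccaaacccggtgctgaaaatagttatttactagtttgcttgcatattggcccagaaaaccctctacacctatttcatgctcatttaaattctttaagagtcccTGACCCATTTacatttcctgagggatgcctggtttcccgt

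The deposited values are log2 transposase insertions per kb after the authors' normalization, and the libraries share their quantiles, so that the number of reads behind a value is unknown. The number of distinct values up to the median, which grows with depth, ranged from 73 in a Hivep3-/- iNKT17 library to 491 in a Hivep3-/- iNKT1 library, and low values are coarser where it is small. In iNKT1 cells this number was 139 and 170 in C57BL/6 and 227 and 491 in Hivep3-/- libraries. In iNKT2 cells it was 219 and 159 against 91 and 118, and in iNKT17 cells 142 and 134 against 85 and 73. It thus differed with genotype within each subset, and its part in the genotype calls was not tested. Promoters of the iNKT17 markers, and of the iNKT1 markers apart from Il2rb, were highest in the subset that the label names. The summed promoter accessibility of 5 iNKT17 markers (Sdc1, Il23r, Ccr6, Il17a, Blk) was 325 and 318 in the C57BL/6 and Hivep3-/- iNKT17 groups against 30.1 to 34.8 in the other 4 groups, and that of 5 iNKT1 markers was 1010 and 986 in iNKT1 cells against 513 to 645, although that of Il2rb, which encodes the CD122 used in the sort, was highest in iNKT17 cells (583 and 550, against 480 and 482 in iNKT1 cells). The sum over 5 iNKT2 markers was less separate, at 728 and 649 in iNKT2 cells against 475 to 610. Of these 5, Izumo1r and Il4 were highest in iNKT2 cells of both genotypes, Gata3 in C57BL/6 alone, and Zbtb16 and Il17rb in neither. A region near the start was present for 4 of 4 T cell markers (555 to 805), 2 of 4 B cell markers (15.0 to 34.5, with no region at Cd79a and Blnk), 2 of 5 myeloid markers (44.0 to 61.5, none at Csf1r, Lyz2 and Itgam), 0 of 5 markers of double-positive thymocytes and 1 of 4 epithelial markers. The Hivep3 gene held 21 regions, none of which was called between genotypes, and the region at its start was between 6.36 and 6.72 in every library, so that accessibility does not check the genotype labels.

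Distal regions were less accessible than the table as a whole. Their median log2 value was between 3.05 and 3.28 in the 12 libraries, against 3.90 for all regions in each library, and they held between 1.60% and 1.95% of the summed signal. With 5 normalized insertions per kb as the mark of accessibility, between 64.6% and 71.0% of them were accessible in a library, against 81.8% to 83.0% of all regions. In C57BL/6 cells, 901 distal regions (44.3%) were accessible in all 3 subsets, as compared to 68.3% of all regions. Accessibility in iNKT17 cells alone was seen at 295 distal regions (14.5%), in iNKT1 cells alone at 204 (10.0%) and in iNKT2 cells alone at 193 (9.50%), and 38 were accessible in none. The base composition differed too, with a median GC content of 46.0% in distal regions and 50.0% over all regions, whereas the median share of repeat-masked bases was 11.6% and 10.0%. Only 46 distal regions lay within 1 kb of the start of any annotated transcript, noncoding ones included.

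The first comparison asked which distal regions are specific to a subset. A region was called specific when limma gave an adjusted p under 0.1 and at least a 3-fold difference to both other subsets of the genotype, provided that a compared group reached a mean of 5 insertions per kb on the linear scale. In C57BL/6 cells, iNKT17 cells had the most, 280 of 1597 distal regions tested (17.5%, with 6.86% called over all regions tested). The calls for iNKT1 were 195 of 1506 (12.9%, against 5.26%) and those for iNKT2 were 147 of 1495 (9.83%, against 3.87%). These 622 regions are 30.6% of all distal regions, while 14.0% of all regions in the table were specific to a subset. Regions lower in a subset than in both others were fewer, with 114 for iNKT1 (7.57%, against 2.99%), 32 for iNKT2 (2.14%, against 1.02%) and 91 for iNKT17 cells (5.70%, against 2.68%). The filter bears on this. A region under 5 in its own subset is tested in both contrasts only where both other subsets reach 5. A specific region needs its own level alone.

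Specific calls were more frequent where the level was low, and distal regions are low, so the shares were set side by side within bins of the mean level over all libraries. Between 10 and 20 insertions per kb, 9.98% of 441 distal regions were specific to iNKT17 against 5.23% of all other regions, 6.35% against 3.74% were specific to iNKT1, and 3.40% against 2.28% to iNKT2. Between 5 and 10, the shares were 12.3% against 7.11% for iNKT17, 10.1% against 6.26% for iNKT1 and 7.43% against 4.42% for iNKT2. Above 40, 8 of 196 distal regions were specific to iNKT17 and none to the other subsets. Distal regions thus had the larger share at a like level in these bins, except above 40 for iNKT1 and iNKT2 cells. All other regions include those in gene bodies. Along the distance to the nearest start, the share specific to iNKT17 was 4.86% of the 5263 regions outside genes within 10 kb. It was 7.54% between 10 and 50 kb and 9.31% between 50 and 100 kb, so that it climbed before the 100 kb mark. Beyond it, the share was 12.0% between 100 and 150 kb and 19.0% of the 116 regions over 500 kb. The shares specific to iNKT1 and iNKT2 were 7.84% and 5.42% between 50 and 100 kb and 10.5% and 6.73% between 100 and 150 kb. They did not climb evenly: iNKT1 fell back to 6.90% between 150 and 250 kb and iNKT2 to 5.17% over 500 kb. Each of these is under the share between 50 and 100 kb.

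**Figure D1:**
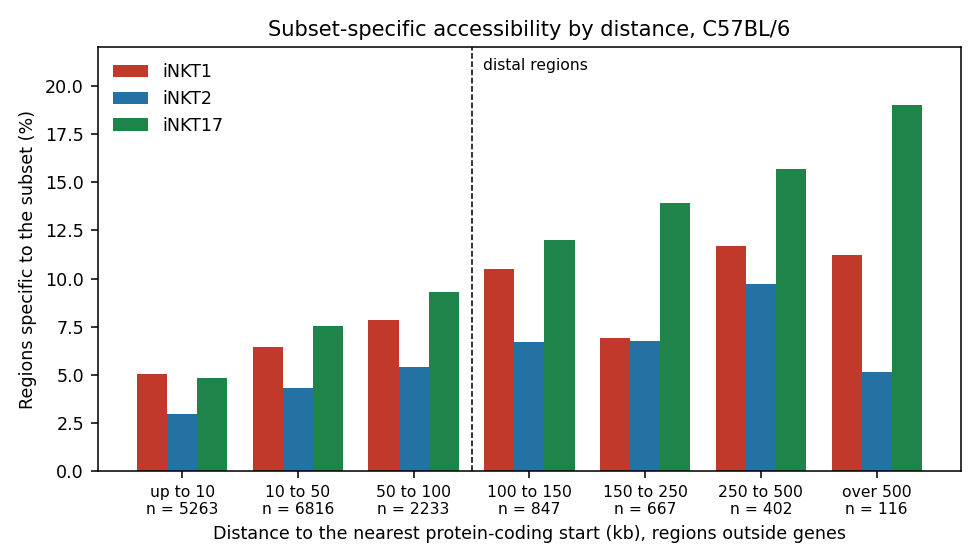
Share of regions outside genes that were specific to each subset in C57BL/6 cells (y axis, percent of all regions in the bin) by distance to the nearest protein-coding start (x axis, kb). Bars are shares of regions and have no error bar. The iNKT17 bars run from 4.86% within 10 kb to 19.0% over 500 kb, and the dashed line marks 100 kb, where the distal regions begin.

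The same calls were made within Hivep3-/- cells. There, the specific distal regions numbered 258 for iNKT17 (16.7%, against 6.29% over all regions tested), 205 for iNKT1 (13.7%, against 6.11%) and 137 for iNKT2 (9.23%, against 3.86%). Of the regions specific in C57BL/6, 228 (81.4%) were also specific to iNKT17 in Hivep3-/- cells and 153 (78.5%) to iNKT1, but only 84 (57.1%) to iNKT2. A region under the mean of 5 in its own subset is tested only where the other subset reaches 5, and so cannot be called higher. In Hivep3-/- cells, 26 of the 63 regions without a second call in iNKT2 were under 5 in their own subset, as were 12 of 42 in iNKT1 and 11 of 52 in iNKT17. Over the whole table these shares were 81.2%, 78.8% and 54.4%. The median level of the 147 regions specific to iNKT2 in C57BL/6 was 3.72 in C57BL/6 and 3.32 in Hivep3-/- iNKT2 cells, whereas it went from 3.72 to 3.68 at the regions specific to iNKT1 in their own subset and from 3.84 to 3.79 at those specific to iNKT17. The C57BL/6 values chose these regions, so their own level there is high by choice.

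The distal regions with the largest margin for iNKT1 cells were at background elsewhere. Near Flrt2, which encodes a cell adhesion molecule, the region at chr12:94083396-94083895, 1610 kb from the start, had log2 values of 4.15 and 4.31 in the C57BL/6 iNKT1 libraries and 3.95 and 3.92 in the Hivep3-/- ones. In the other 8 libraries it lay between -4.05 and -2.39. The lowest values stand for few or no insertions and a fold against them depends on that floor, so none is given (limma adjusted p = 2.52e-06 and 1.04e-06 against C57BL/6 iNKT2 and iNKT17). The regions near Capza3, Glul and En1 had the same form. In iNKT1 libraries, the region near Capza3 was between 3.96 and 4.62, the one near Glul, the gene of glutamine synthetase, between 3.35 and 4.01, and the one near En1, a homeobox gene, between 3.54 and 4.52. None of the other libraries reached -0.5 at these 3 regions. All 4 were specific to iNKT1 in Hivep3-/- cells too, and none was called between genotypes.

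The leading regions for iNKT2 cells had lower values in Hivep3-/- iNKT2 cells. The C57BL/6 values chose these regions, so that a lower Hivep3-/- value follows in part from the choice. Near Arhgap20, which encodes a GTPase-activating protein, the region at chr9:51575062-51575561 was at 3.11 and 3.32 in C57BL/6 iNKT2 cells and at 0.90 and 1.80 in Hivep3-/- ones, against -4.05 to -1.65 elsewhere, and its change between genotypes did not pass the test (log2 change -1.86 ± 0.85 SE, limma adjusted p = 0.192). Near Qrsl1, which encodes a subunit of a mitochondrial amidotransferase, and 118 kb from it, the values were 5.17 and 5.42 in C57BL/6 and 4.15 and 3.95 in Hivep3-/- iNKT2 cells. This change did not pass the test either (log2 change -1.24 ± 0.48 SE, limma adjusted p = 0.119). At this region iNKT1 cells went the other way, from 0.81 and 1.39 to 2.64 and 2.82 (log2 change 1.63 ± 0.48 SE, limma adjusted p = 0.0613), a call that was lost without C57BL/6 replicate 1 (1.34), Hivep3-/- replicate 1 (1.72) or Hivep3-/- replicate 2 (1.55) of iNKT1. Near Nfe2l3, a gene of the bZIP family, iNKT2 cells fell from 3.12 and 2.83 to 0.20 and 0.20 (log2 change -2.77 ± 0.60 SE, limma adjusted p = 0.0103), and without C57BL/6 iNKT2 replicate 1 the fall of 2.63 on the log2 scale was not called. The fourth region, near Ttc27, is the largest fall of the genotype comparison and is described there. In Hivep3-/- cells the region near Qrsl1 was tested and fell short of 3-fold over iNKT1 (1.32 on the log2 scale), while the other 3 were under the mean of 5 and were not tested. Near Arhgap20, Hivep3-/- iNKT2 cells still stood highest, with a mean of 1.35 against -2.05 in iNKT1 and -2.82 in iNKT17. At all 4 regions the iNKT2 libraries of the genotypes did not overlap. That also held for 62.3% of distal regions and 53.8% of all regions tested in iNKT2 cells, so that nothing is read from this.

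The leading regions for iNKT17 cells were open in that subset alone. Near Mycn, an oncogene and transcription factor of the Myc family, the region at chr12:12827756-12828255 was at 5.55 and 5.42 in C57BL/6 and 5.64 and 5.72 in Hivep3-/- iNKT17 cells, and no other library was above -1.72. The region near Zfp608, a zinc finger protein gene, was between 5.44 and 5.61 in the 4 iNKT17 libraries, and those near Rpl14, a ribosomal protein gene, and Gm26657 were between 4.78 and 5.04 and between 4.40 and 4.77. All 4 were specific to iNKT17 in both genotypes, and none was called between genotypes in iNKT17 cells, where the adjusted p was between 0.943 and 0.993 (limma).

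**Figure D2:**
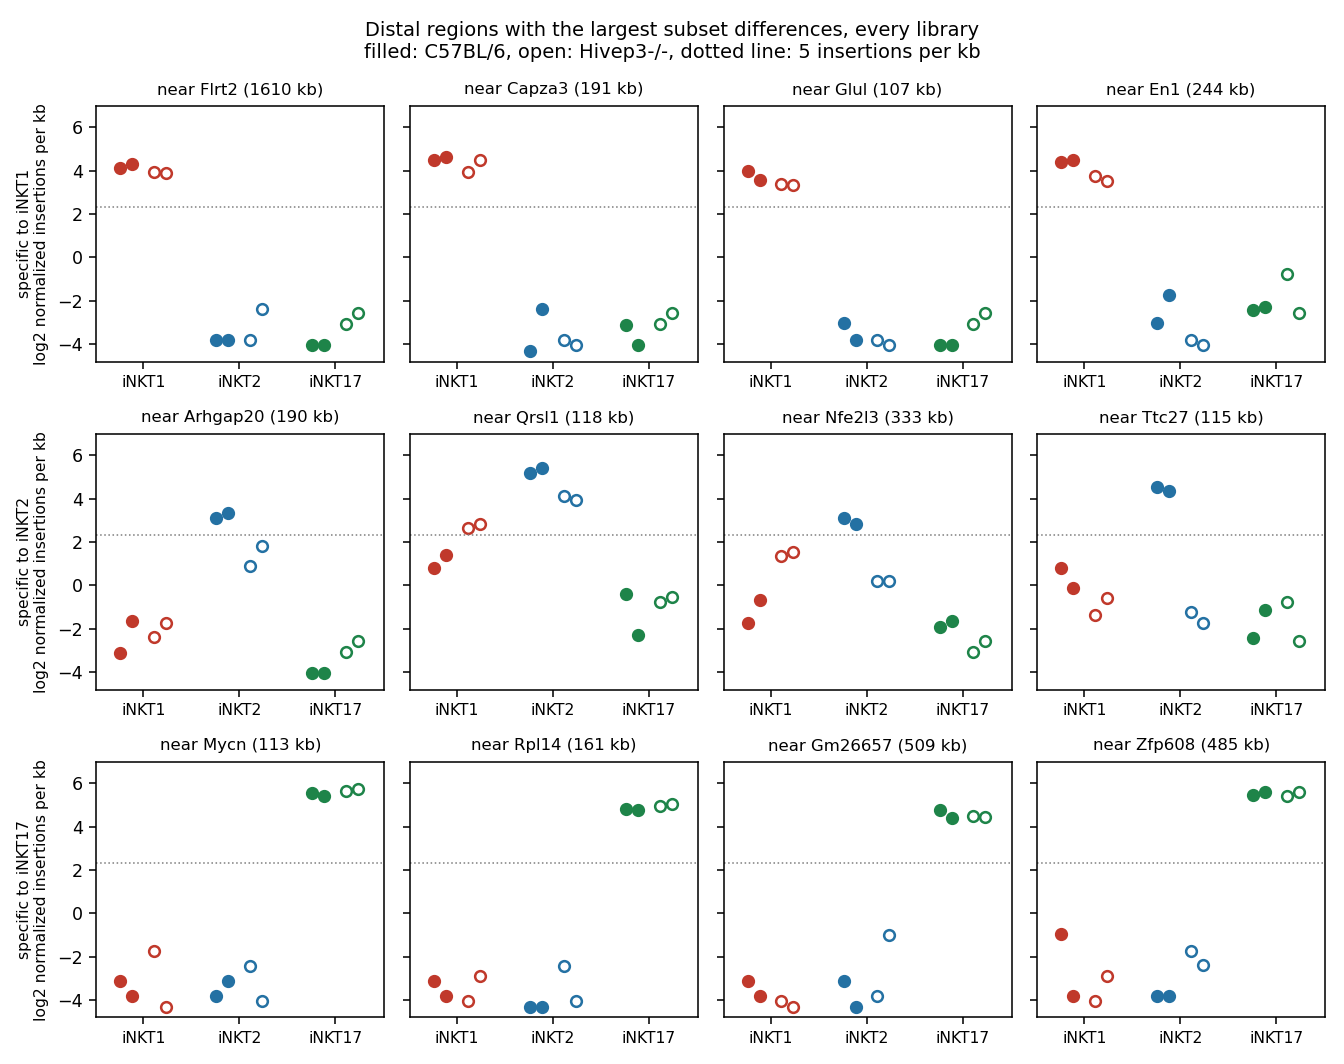
The 4 distal regions with the largest margin for each subset, 1 row per subset, with log2 normalized insertions per kb (y axis) in every library by subset (x axis). Each point is a library, filled for C57BL/6 and open for Hivep3-/-, and titles give the nearest gene and its distance. In the iNKT17 row the 4 iNKT17 libraries stand between 4.40 and 5.72 with every other library under -0.5, and in the iNKT2 row the open iNKT2 points stand below the filled ones. The regions were chosen by the C57BL/6 values, which are high by this choice.

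Motif matches, counted from here on over the whole 500 bp of a region, differed between the specific groups. The ROR consensus was matched in 79 of the 280 distal regions specific to iNKT17 (28.2%), in 5 of 195 specific to iNKT1 (2.56%), in 1 of 147 specific to iNKT2 (0.680%) and in 36 of the 1410 specific to none (2.55%), while 3.21% of all regions in the table held a match. The motif is read by nuclear receptors of the ROR family. The T-box motif was matched in 21 regions specific to iNKT1 (10.8%), 4 specific to iNKT2 (2.72%) and 7 specific to iNKT17 (2.50%), against 2.91% of all regions. The TCF motif was matched in 39 regions specific to iNKT2 (26.5%), 20 specific to iNKT1 (10.3%) and 46 specific to iNKT17 (16.4%), against 11.2% of all regions. Specific regions that are not distal had like shares, with ROR in 28.1% of 3551 specific to iNKT17, T-box in 11.0% of 2713 specific to iNKT1 and TCF in 23.2% of 1974 specific to iNKT2.

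Other motifs differed between distal regions as a whole and the table, and regions outside genes within 100 kb of a start mostly lay between them. GATA was matched in 29.2% of distal regions, 23.6% of these closer regions and 20.6% of all regions. The shares in this order were 26.3%, 20.1% and 17.4% for Runt, 23.4%, 18.9% and 15.9% for AP-1, 13.5%, 10.6% and 9.87% for ETS, and 12.6%, 10.9% and 10.1% for NFAT. Shares were near each other for the E-box (25.3% and 27.1%) and NF-kB (8.86% and 8.60%). Egr, whose motif is rich in G and C, was matched in 1 distal region (0.0492%) against 0.643% of all regions. The CTCF consensus was matched in 2 of the 622 specific distal regions, both specific to iNKT17, and in 53 of the 1410 others (3.76%). Base composition differs between these groups and no match was weighted by it, so the shares are descriptions.

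Distal regions had 586 nearest genes, of which 233 had a single region. The 8 with the most were Id2 (29), 3110018I06Rik (26), Gata3 (24), Rnf144a (24), Cog6 (23), Cxcr4 (22), Olfr1507 (22) and Rplp1 (21). Among a list of 38 transcription factors of T cells, 15 were the nearest gene of 146 distal regions, of which 22 were specific to iNKT17 and 11 to each of the other subsets. These 44 are 30.1% of the list's regions, near the 30.6% of all distal regions. Of 33 surface receptor genes 3 had distal regions (31 in all, of which 6 or 19.4% were specific to a subset). Of 16 cytokine and chemokine genes 2 had them (6 in all, of which 2 or 33.3% were specific).

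Id2 encodes an inhibitor of E proteins that iNKT1 cells express, and its 29 distal regions all lay upstream, 114 to 606 kb from the start, of which 4 were specific to iNKT1 and 1 to each of the other subsets, in both genotypes. The clearest, at chr12:25211298-25211797, was between 5.18 and 5.61 in the 4 iNKT1 libraries, between 1.40 and 2.20 in iNKT17 and between -2.39 and -0.10 in iNKT2 libraries. Another, 504 kb from Id2, was highest in iNKT2 cells (4.96 and 4.82 in C57BL/6 and 3.96 and 4.86 in Hivep3-/-) and no higher than 2.23 in the rest. Gata3, a factor that Th2 and iNKT2 cells need, had 24 distal regions, all downstream, of which 2 were specific to iNKT1, 2 to iNKT17 and none to iNKT2. Of the iNKT1 calls, 1 was lost without C57BL/6 iNKT1 replicate 1 (2.07), iNKT1 replicate 2 (2.10) or iNKT2 replicate 2 (1.86). At chr2:9519339-9519838, 359 kb from Gata3, iNKT1 libraries were between 3.90 and 4.53 and all others at or under 2.66.

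Runx1 and Maf stood out among these factors by the number of regions of 1 kind. Runx1, a factor of T cell development, had 12 distal regions, all upstream, of which 8 were specific to iNKT2 in C57BL/6 and 4 of these in Hivep3-/- cells too. The one with the largest margin, at chr16:93109654-93110153 and 284 kb away, was at 4.52 and 4.66 in C57BL/6 and 4.12 and 3.77 in Hivep3-/- iNKT2 cells, and between 0.49 and 1.55 in the other libraries. Maf, which encodes c-Maf, a factor of IL-17 producing T cells, had 17 distal regions, all downstream, of which 7 were specific to iNKT17 in both genotypes and none to another subset. At chr8:115411750-115412249 the 4 iNKT17 libraries were between 3.84 and 4.53 and all others at or under -0.42.

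Eomes, which encodes a T-box factor, had 2 distal regions and both were specific to iNKT1 in both genotypes. The one at chr9:118357322-118357821 was between 4.56 and 5.10 in iNKT1 cells. Bcl11b, needed for T cell commitment, had 6 distal regions of its own, 3 of them specific to iNKT17. At chr12:107835686-107836185, 167 kb downstream of the Bcl11b start, the 4 iNKT17 libraries were between 5.97 and 6.46 and all others at or under 2.20. Tox, which encodes a factor that positively selected thymocytes need, had 10 distal regions, of which 2 were specific to iNKT2 and 3 to iNKT17, and 1 of the iNKT2 calls was lost without C57BL/6 iNKT17 replicate 2 (1.31). Foxo1, Ets1 and Satb1 had 17, 11 and 6 distal regions, of which 2 each were specific to iNKT17. Of these pairs, 1 call near Foxo1 was lost without C57BL/6 iNKT1 replicate 1 (1.58) and 1 near Satb1 without iNKT17 replicate 1 (1.52). The iNKT1 calls near Foxo1, Satb1 and Cxcr4 were close to the 3-fold threshold (smaller differences of 1.62, 1.59 and 1.65 on the log2 scale). They were lost without C57BL/6 iNKT1 replicate 2 (1.56) or iNKT2 replicate 2 (1.55) near Foxo1, without iNKT1 replicate 1 (1.58) or iNKT17 replicate 2 (1.24) near Satb1, and without iNKT1 replicate 1 (1.48), iNKT2 replicate 2 (1.46) or iNKT17 replicate 1 (1.42) near Cxcr4.

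Effector genes with distal regions were few. Ifng, the gene of interferon-γ, had 5, all downstream at 147 to 193 kb, of which 1 was specific to iNKT1. At this region, chr10:118627966-118628465, iNKT1 libraries were between 2.77 and 3.12 and the others between -0.78 and 1.29, and its call was lost without C57BL/6 iNKT17 replicate 2 (smaller difference 1.52). Xcl1, which encodes the chemokine lymphotactin, had a single distal region, which was between 3.05 and 3.40 in iNKT1 cells and at or under 0.61 elsewhere. Cxcr4, a chemokine receptor gene, had 22 distal regions, all upstream at 106 to 240 kb, of which 3 were specific to iNKT17 and 1 to each of the other subsets. At chr1:128779683-128780182 iNKT17 libraries were between 4.18 and 5.26 and all others at or under 1.50. Icos and Itga4 had 6 and 3 distal regions, with 1 specific region between them, specific to iNKT2 near Itga4, whose call was lost without C57BL/6 iNKT1 replicate 1 (1.27).

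Distal regions were grouped into 476 stretches between the starts of flanking protein-coding genes, of which 183 held a single region and 53 held 10 or more. These 53 stretches held 866 distal regions (42.6%). The stretch from Id2 to Rnf144a, 1318 kb long, had the most, with 53 regions, of which iNKT17 had 6 specific ones, iNKT1 4 and iNKT2 1. The stretch from Foxo1 to Cog6 had 40 regions, with 5 specific to iNKT17, 2 to iNKT1 and 1 to iNKT2. The stretch from Vrk1 to 3110018I06Rik had 36 regions, with 7 specific to iNKT17, 1 to iNKT1 and 1 to iNKT2. By contrast, none of the 27 regions between Olfr1507 and Dad1, the stretch of the T cell receptor alpha variable segments, was specific to a subset.

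Several stretches held specific regions of 1 subset only. From Sall3 to Galr1, 8 of 16 regions were specific to iNKT1 (5 of them in Hivep3-/- cells too). From Tbc1d1 to Klf3 this held for 6 of 21 (3 in both genotypes), and from Wwox to Maf 7 of 17 were specific to iNKT17. Others of this kind included Nucb2 to Xylt1 (8 of 13, iNKT2), Sel1l to Flrt2 (8 of 12, iNKT1) and Klf4 to Gm26657 (6 of 8, iNKT17). Over all distal regions 30.6% were specific to a subset, and 6 of 21 is near this share. All 9 regions nearest to Mycn were specific to iNKT17 in both genotypes. Neighbouring regions were often of 1 kind. Of 646 consecutive distal regions within 5 kb of each other in a stretch, 85 pairs were both specific to a subset, and in 79 of these (92.9%) it was the same subset. The share was 86.8% of 53 pairs between 5 and 25 kb apart and 75.7% of 37 pairs between 25 and 100 kb apart. Neighbours may be parts of a single open domain and are not independent.

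**Figure D3:**
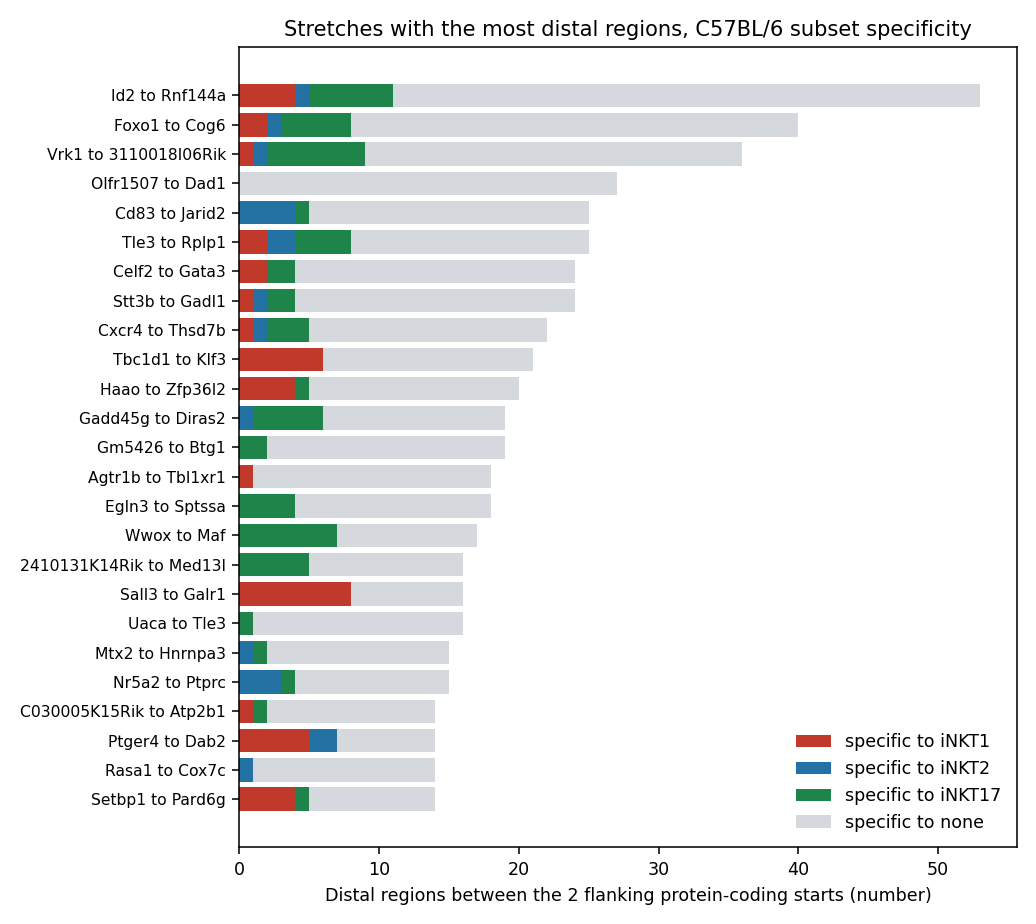
Number of distal regions (x axis) in the 25 stretches between flanking protein-coding starts that held the most (y axis, named by the flanking genes). Colours give the regions specific to each subset in C57BL/6 and grey those specific to none. The bar for Id2 to Rnf144a reaches 53, the bar for Olfr1507 to Dad1 is grey throughout, and iNKT1 fills 8 of 16 regions from Sall3 to Galr1.

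The highest distal region over all libraries, at chr12:97061309-97061808, 1180 kb from Galc, was at the top value of the table, 9.30, in 9 of the 12 libraries and between 8.05 and 8.60 in the other 3, all of iNKT1. The next, 1770 kb from G6pd2, was at 7.53 and 7.19 in C57BL/6 and 8.46 and 8.48 in Hivep3-/- iNKT2 cells (log2 change 1.11 ± 0.17 SE, limma adjusted p = 0.00131), a change under 3-fold. The regions near Gm5426 and Sspn were between 7.36 and 7.80 and between 6.98 and 7.63, with little difference between groups.

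The second comparison asked which distal regions differ between C57BL/6 and Hivep3-/- cells within a subset. In iNKT1 cells, 28 of 1440 distal regions tested were higher in Hivep3-/- cells (1.94%, with 0.890% of all regions tested called so) and 16 were lower (1.11%, against 0.264%). In iNKT2 cells, 13 of 1503 were higher (0.865%, against 0.474%) and 42 lower (2.79%, against 1.20%). In iNKT17 cells, 2 of 1498 were higher (0.134%, against 0.133%) and 4 lower (0.267%, against 0.138%). Another 592, 529 and 534 distal regions stayed out of these tests, with a mean under 5 in either genotype on the linear scale. For iNKT1, iNKT2 and iNKT17 in turn, the distal regions tested had a median change of -0.10, 0.01 and -0.04, and all regions tested one of -0.02, 0.00 and -0.01. In all, 101 distal regions (4.97%, against 2.46% of all regions) were called in at least 1 subset, and 4 in a pair of subsets. None was called in all 3, which only 16 of all regions were (0.0253%), so that nothing is read from this. The libraries of the genotypes did not overlap at any called region, which a 3-fold call with 2 libraries a group nearly fixes, and among all regions tested they did not overlap at 53.7% in iNKT1, 53.8% in iNKT2 and 44.7% in iNKT17. In such bulk libraries, fewer cells with an open region and less signal per cell cannot be told apart. The counts rest on single libraries in places, since without C57BL/6 iNKT1 replicate 1 there were 26 calls in iNKT1 cells in place of 44, and without either Hivep3-/- iNKT17 library there were 10 in iNKT17 cells in place of 6.

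Called regions were weak. Their median level in the higher genotype was 10.1, 10.2 and 6.82 insertions per kb for iNKT1, iNKT2 and iNKT17 cells. All distal regions tested had 14.9, 15.2 and 14.8. In the lower genotype the median of called regions was under 5 in each subset, so most of these folds rest on a value under the filter. Both genotypes reached a mean of 5 at 7 of 28 rises and 1 of 16 falls in iNKT1 cells. In iNKT2 cells this held for 1 of 13 rises and 7 of 42 falls, and in iNKT17 cells for none. Set beside other regions of like mean level, between 20 and 40 insertions per kb 3.38% of distal regions were called in iNKT1 cells against 0.492% of the rest, and 2.03% against 0.662% in iNKT2 cells. Between 5 and 10 the shares were 2.67% against 1.39% and 2.08% against 1.89%. Under 5 they were 1.41% against 3.17% in iNKT1 cells and 5.87% against 5.58% in iNKT2 cells, so that the excess over other regions was not seen at the lowest levels. Of all regions outside genes 50 to 100 kb from a start, 2.10%, 2.42% and 0.224% were called in iNKT1, iNKT2 and iNKT17 cells. Between 100 and 150 kb these shares were 1.53%, 2.24% and 0.472%, so that in iNKT1 and iNKT2 cells no rise was seen at 100 kb.

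**Figure D4:**
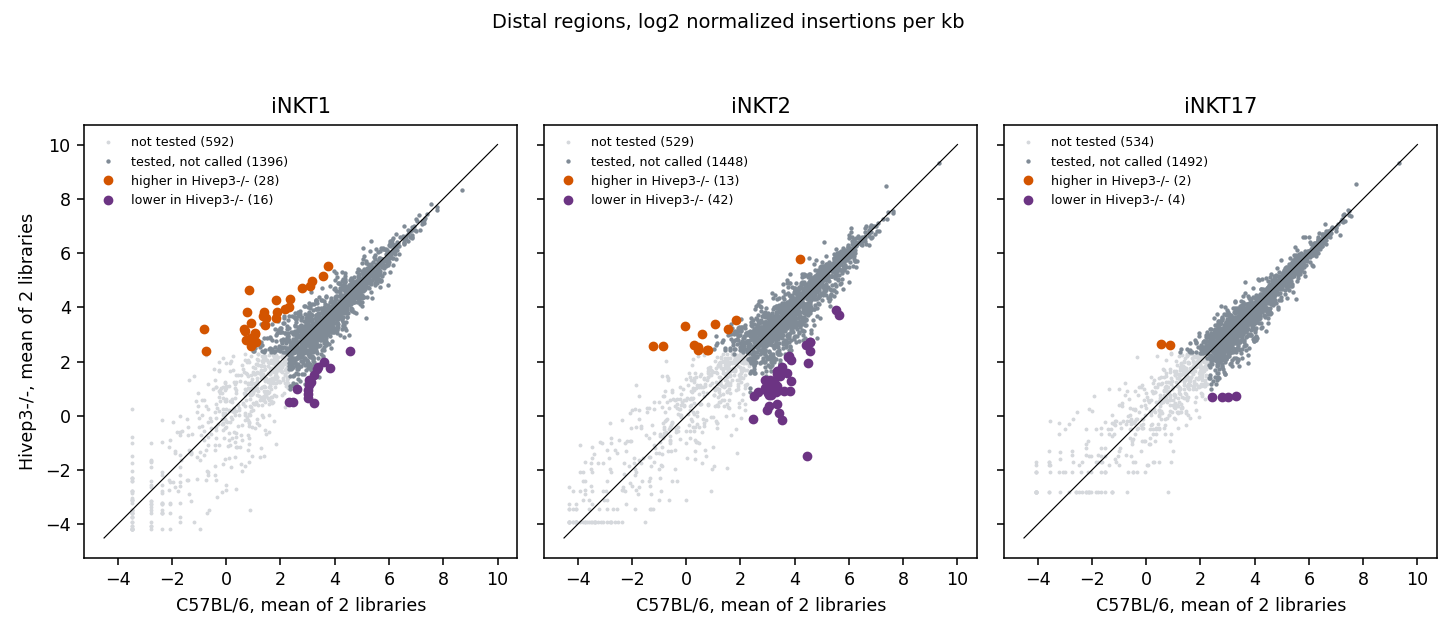
Mean log2 normalized insertions per kb of each distal region in Hivep3-/- cells (y axis) against C57BL/6 cells (x axis), in 1 panel per subset, each mean over 2 libraries. Orange points were called higher and purple points lower in Hivep3-/- cells, and the line marks equal values. Called points are 28 and 16 in iNKT1, 13 and 42 in iNKT2 and 2 and 4 in iNKT17 cells, and they lie at low to middle levels.

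Some of the regions called between genotypes were also subset-specific. In C57BL/6 cells, 12.9%, 9.83% and 17.5% of distal regions tested were specific to iNKT1, iNKT2 and iNKT17. In Hivep3-/- cells these shares were 13.7%, 9.23% and 16.7%. Of the 28 regions higher in Hivep3-/- iNKT1 cells, 10 were specific to iNKT2 in C57BL/6, and 6 were specific to iNKT1 in Hivep3-/- cells against 2 in C57BL/6. Of the 42 regions lower in Hivep3-/- iNKT2 cells, 14 were specific to iNKT2 in C57BL/6 and none in Hivep3-/- cells, where 13 were specific to iNKT1. Of the 13 regions higher in Hivep3-/- iNKT2 cells, 9 were specific to iNKT17 in C57BL/6 and 2 in Hivep3-/- cells. Of the 16 regions lower in Hivep3-/- iNKT1 cells, 1 was specific to each subset in C57BL/6. Of the 4 lower in iNKT17 cells, 1 was specific to iNKT2, and neither of the 2 higher ones was specific. The C57BL/6 libraries enter both the subset and the genotype call, so these counts are not independent of each other. A 3-fold fall in iNKT2 cells also leaves little room for a call specific to iNKT2 in Hivep3-/- cells. The summed promoter accessibility of the iNKT17 markers was 33.7 in C57BL/6 and 30.3 in Hivep3-/- iNKT2 cells, and that of the iNKT2 markers was 610 in C57BL/6 and 481 in Hivep3-/- iNKT1 cells and 728 and 649 in iNKT2 cells. Their part in the result was not tested. The authors report less Icos transcript and protein in Hivep3-/- iNKT cells, and ICOS separated iNKT1 from iNKT2 in the last sort. Whether this gate cut the genotypes alike was not tested.

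The largest rise in iNKT1 cells lay 105 kb upstream of Otud4, a deubiquitinase gene, at chr8:79534235-79534734, between Otud4 and Smad1. Its values were -0.94 and -0.67 in C57BL/6 and 3.05 and 3.35 in Hivep3-/- iNKT1 libraries (log2 change 4.01 ± 0.37 SE, limma adjusted p = 4.75e-05). In iNKT2 cells, where it was specific in C57BL/6, it was at 3.85 and 3.70 and 2.83 and 3.00, which did not pass the test (log2 change -0.86 ± 0.37 SE, limma adjusted p = 0.158). The Hivep3-/- iNKT1 cells thus stood near the level of Hivep3-/- iNKT2 cells at this region. The third rise, 200 kb upstream of the flippase gene Atp10a, went from 0.15 and -1.65 to 2.28 and 2.47 (log2 change 3.12 ± 0.64 SE, limma adjusted p = 0.0107), and it was specific to iNKT17 in C57BL/6. Its bases are 81.2% repeat-masked, so that placing reads there is less sure.

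The falls in iNKT1 cells were led by the region near Mtx2 described with the regions called in a pair of subsets. At chr4:32109665-32110164, 129 kb upstream of Bach2, which encodes a repressor of effector genes in T cells, iNKT1 cells went from 3.00 and 3.06 to 1.04 and 0.30 (log2 change -2.36 ± 0.73 SE, limma adjusted p = 0.0798), and iNKT2 cells, not tested there, from 0.68 and 0.68 to -1.72 and -0.78. The call near Bach2 was lost without any 1 of the 4 iNKT1 libraries (changes of -2.73 to -1.99). At chr16:29855639-29856138, 209 kb upstream of Hes1, a target of Notch, the values were 3.17 and 2.89 and 0.70 and 0.93 (log2 change -2.21 ± 0.25 SE, limma adjusted p = 0.000226). A second region of this stretch, 220 kb from Hes1, fell in iNKT2 cells by 1.61 on the log2 scale (SE 0.17, limma adjusted p = 0.000143).

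The largest fall of all lay in iNKT2 cells, at chr17:74865791-74866290, 115 kb downstream of the nearest protein-coding start of Ttc27, a tetratricopeptide repeat gene. Another annotated transcript of Ttc27, not of protein-coding type, starts 4.12 kb away, so that the region is not distal when all transcripts of protein-coding genes are counted. C57BL/6 iNKT2 libraries were at 4.53 and 4.35 and Hivep3-/- ones at -1.22 and -1.72 (log2 change -5.91 ± 0.74 SE, limma adjusted p = 0.00047), which is 21.8 against 0.366 insertions per kb on the linear scale. In the other 8 libraries it was between -2.58 and 0.81, so that accessibility was seen in C57BL/6 iNKT2 cells alone. Near Lmo4, which encodes a LIM-only cofactor, the values went from 3.49 and 3.58 to -0.40 and 0.10 (log2 change -3.69 ± 0.71 SE, limma adjusted p = 0.00556). Near Cited2, which encodes a cofactor of CBP and p300, they went from 3.34 and 3.48 to -0.61 and 0.84 (log2 change -3.30 ± 0.46 SE, limma adjusted p = 0.000936), while iNKT1 cells stood between 1.82 and 2.11 in both genotypes.

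The rises in iNKT2 cells included a pair of regions of 1 stretch. At chr12:15571566-15572065 and chr12:15587123-15587622, 245 and 229 kb from Trib2, a pseudokinase gene, C57BL/6 iNKT2 libraries were at 0.27 and -2.69 and at 0.63 and -0.67. The Hivep3-/- iNKT2 libraries were at 2.75 and 2.39 and at 2.96 and 3.68. The changes were 3.78 ± 0.91 (SE, limma adjusted p = 0.0182) and 3.34 ± 0.58 (adjusted p = 0.00298), and both regions were specific to iNKT17 in C57BL/6 but not in Hivep3-/- cells. The first call was lost without C57BL/6 iNKT2 replicate 2, with a change of 2.30. Near Ajap1, which encodes a protein of adherens junctions, iNKT2 cells went from a mean of -0.83 ± 0.23 (SD, n = 2) to 1.98 and 3.21 (log2 change 3.43 ± 0.62 SE, limma adjusted p = 0.00384), at a region of which 80.2% is repeat-masked.

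In iNKT17 cells the few called regions were near the threshold of accessibility. At chr3:52371618-52372117, 104 kb downstream of the start of Foxo1, a factor of naive and memory T cells, iNKT17 cells went from 3.12 and 3.49 to 1.59 and -0.10 (log2 change -2.56 ± 0.45 SE, limma adjusted p = 0.0129), whereas iNKT1 cells, not tested there, went from -0.11 and 0.49 to 1.96 and 2.06. Near Prickle1, a gene of planar cell polarity, the values were 3.15 and 2.92 and 0.74 and 0.63 (log2 change -2.35 ± 0.32 SE, limma adjusted p = 0.00419), and near Plxnc1, a semaphorin receptor gene, 2.60 and 2.98 and 0.19 and 1.23 (log2 change -2.08 ± 0.43 SE, limma adjusted p = 0.0267). The 2 rises lay near Tomm20, which encodes an import receptor of mitochondria, from 0.39 and 0.74 to 2.13 and 3.16 (log2 change 2.08 ± 0.39 SE, limma adjusted p = 0.0174), and in the T cell receptor alpha stretch beyond Olfr1507, from 0.82 and 0.97 to 2.39 and 2.83 (log2 change 1.72 ± 0.36 SE, limma adjusted p = 0.0277). Calls were lost near Tomm20 without C57BL/6 iNKT17 replicate 1 (1.91), near Olfr1507 without C57BL/6 replicate 1 (1.64) or Hivep3-/- replicate 2 (1.50), and near Plxnc1 without C57BL/6 replicate 1 (-2.27), C57BL/6 replicate 2 (-1.89) or Hivep3-/- replicate 1 (-1.56).

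Of the 4 regions called in a pair of subsets, the one at chr2:75101454-75101953, 276 kb downstream of Mtx2, which encodes a protein of the mitochondrial outer membrane, fell in both. It went from 3.35 and 3.11 to 0.40 and 0.57 in iNKT1 cells (log2 change -2.74 ± 0.27 SE, limma adjusted p = 9.41e-05) and from 4.69 and 4.40 to 2.83 and 2.61 in iNKT2 cells (log2 change -1.83 ± 0.27 SE, limma adjusted p = 0.00132). In iNKT17 cells it went from 4.04 and 4.06 to 2.49 and 3.38, which passed the adjusted p but not 3-fold (log2 change -1.11 ± 0.27 SE, limma adjusted p = 0.0532). Groups did not overlap in any subset. Near Vrk1, a nuclear kinase gene 587 kb away, iNKT1 cells went from 4.71 and 4.43 to 2.52 and 2.30 (log2 change -2.16 ± 0.60 SE, limma adjusted p = 0.0518) and iNKT2 cells from 3.63 and 2.59 to 1.20 and 0.35 (log2 change -2.34 ± 0.60 SE, limma adjusted p = 0.0258). The iNKT1 call near Vrk1 was lost without any 1 of its 4 libraries (-2.30 to -2.02), and the iNKT2 call without C57BL/6 replicate 1 (-1.82) or Hivep3-/- replicate 2 (-1.91).

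The other 2 regions differed in direction. At chr13:41948174-41948673, 101 kb from Adtrp in the stretch that leads to Hivep1, a paralog of Hivep3, both subsets rose, from 3.36 and 3.77 to 5.24 and 5.08 in iNKT1 cells (log2 change 1.60 ± 0.17 SE, limma adjusted p = 0.000154) and from 4.23 and 4.13 to 5.75 and 5.83 in iNKT2 cells (log2 change 1.61 ± 0.17 SE, limma adjusted p = 0.000153). Hivep3-/- cells of both subsets thereby stood near the level of iNKT17 cells, 5.76 and 5.45 in C57BL/6. These changes were just over 3-fold, and they fell under it without C57BL/6 replicate 1 (1.39) or Hivep3-/- replicate 1 (1.51) of iNKT1 and without C57BL/6 replicate 2 (1.55) or Hivep3-/- replicate 2 (1.56) of iNKT2. At chr13:107619448-107619947, 425 kb upstream of Smim15, iNKT1 cells rose from -0.11 and 1.78 to 4.52 and 4.73 (log2 change 3.79 ± 0.51 SE, limma adjusted p = 0.000725), and iNKT2 cells fell from 2.96 and 3.61 to 1.60 and 0.76 (log2 change -2.11 ± 0.51 SE, limma adjusted p = 0.0184). The fall was not called without C57BL/6 replicate 2 (-1.79) or Hivep3-/- replicate 2 (-1.69) of iNKT2. In C57BL/6 this region was lowest in iNKT1 cells, and in Hivep3-/- cells it was specific to them.

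**Figure D5:**
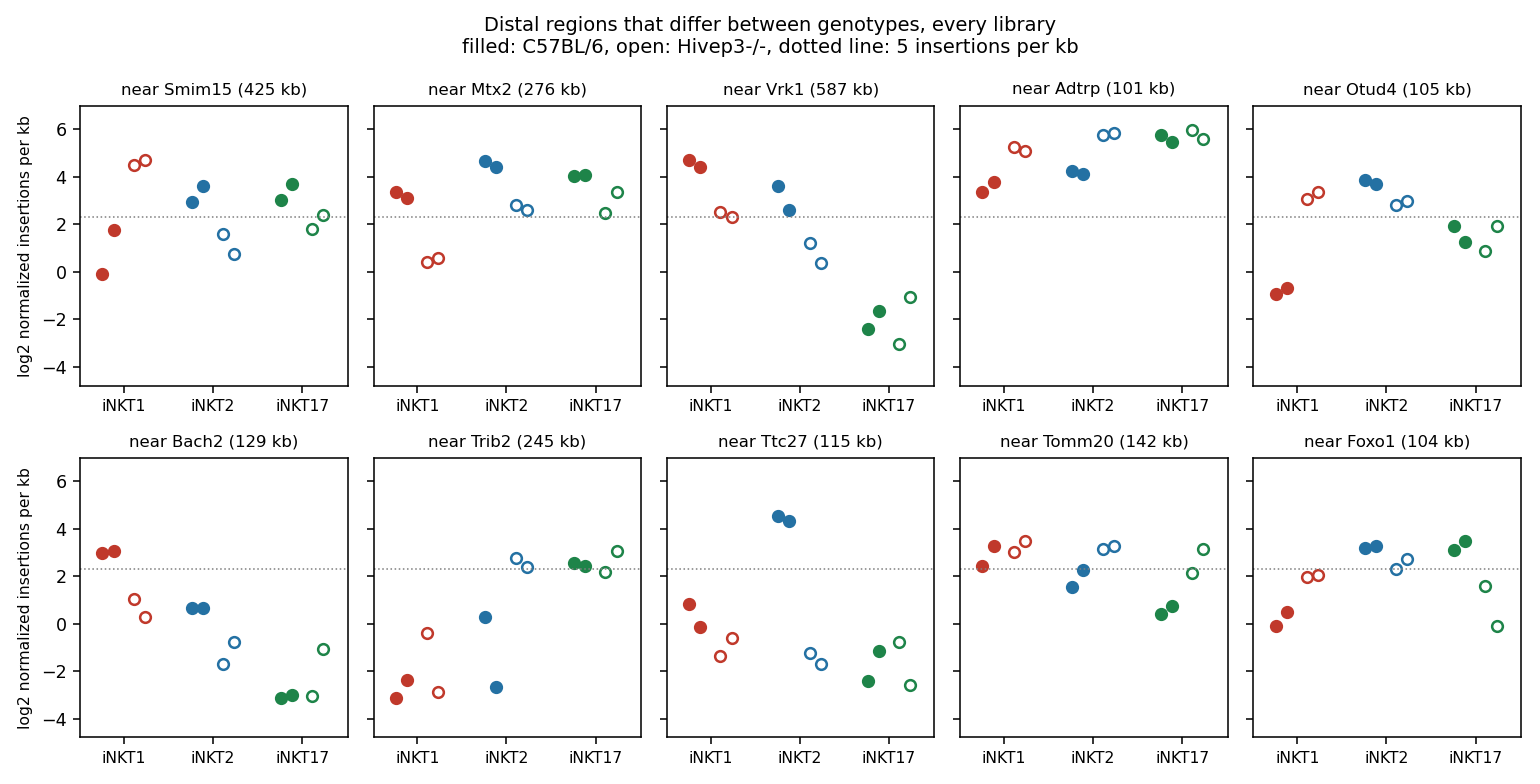
Log2 normalized insertions per kb (y axis) in every library by subset (x axis) at 10 distal regions that differ between genotypes, the 4 called in a pair of subsets first, then the largest other rise and fall of each subset. Each point is a library, filled for C57BL/6 and open for Hivep3-/-. Near Smim15 the open points are above the filled ones in iNKT1 and below them in iNKT2 cells, and near Ttc27 only the filled iNKT2 points are above the dotted line at 5 insertions per kb.

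Whether the change between genotypes itself differs between subsets was tested as an interaction, with the 3-fold threshold on the difference of the changes. It differed between iNKT1 and iNKT2 at 115 distal regions (6.46% of those tested, with 3.06% called over all regions tested), between iNKT1 and iNKT17 at 66 (3.55%, against 1.42%) and between iNKT2 and iNKT17 at 42 (2.28%, against 1.02%), and at 181 distal regions in at least 1 of these. Without Hivep3-/- iNKT1 replicate 2 the last count was 118. At the region near Smim15 the change in iNKT1 minus that in iNKT2 was 5.90 ± 0.72 (SE, limma adjusted p = 0.00108). Near Mtx2 it was -0.91 ± 0.39 (adjusted p = 0.193) and near Vrk1 0.18 ± 0.86 (adjusted p = 0.944), so that a difference between these subsets was not detected there. Near Adtrp it was -0.01 ± 0.24 (adjusted p = 0.988).

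Of the 146 distal regions nearest to the 38 T cell factors, 7 were called between genotypes (4.79%), near the share of all distal regions (4.97%), so the list does not stand apart. Of these, 2 rose and 1 fell in iNKT1 cells, 1 rose and 2 fell in iNKT2 cells and 1 fell in iNKT17 cells. Near Runx1, at chr16:92939408-92939907, iNKT1 cells went from -0.11 and 1.93 to 3.32 and 3.50 (log2 change 2.50 ± 0.71 SE, limma adjusted p = 0.0564), at a region specific to iNKT2 in C57BL/6, and the call was lost without C57BL/6 replicate 1 (1.48), Hivep3-/- replicate 1 (2.60) or Hivep3-/- replicate 2 (2.41) of iNKT1. Near Bcl11b, at chr12:107834460-107834959, iNKT2 cells went from 0.14 and 0.76 to 2.39 and 2.45 (log2 change 1.97 ± 0.37 SE, limma adjusted p = 0.00488), next to the iNKT17 region described above. Near Ets1, iNKT2 cells fell from 3.06 and 3.06 to 0.51 and 1.02 (log2 change -2.29 ± 0.56 SE, limma adjusted p = 0.019) and iNKT1 cells stood between 3.19 and 3.74 in both genotypes, but the iNKT2 call was lost without C57BL/6 replicate 1 (-2.30), C57BL/6 replicate 2 (-2.29) or Hivep3-/- replicate 1 (-2.04). Near Ikzf2, which encodes Helios, iNKT2 cells went from 3.75 and 3.82 to 2.09 and 2.31 (log2 change -1.59 ± 0.27 SE, limma adjusted p = 0.00273), a call lost without C57BL/6 replicate 2 (-1.55) or Hivep3-/- replicate 1 (-1.48).

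Among the surface receptors, 2 of 31 distal regions were called between genotypes (6.45%, against 4.97% of all distal regions). So few regions do not set the list apart. They lay near Cxcr4 and Icos, 1 each, and were called in iNKT1 cells. Near Cxcr4, at chr1:128745926-128746425, iNKT1 cells went from 1.35 and 2.39 to 3.71 and 3.94 (log2 change 1.96 ± 0.40 SE, limma adjusted p = 0.0107), and the call was lost without C57BL/6 replicate 1 (1.44) or Hivep3-/- replicate 2 (1.84). Near Icos, whose product was used in the sort, they went from 3.81 and 3.44 to 2.06 and 1.88 (log2 change -1.65 ± 0.52 SE, limma adjusted p = 0.0816), and the call was lost without any 1 of the 4 libraries (-1.84 to -1.47). A second region near Foxo1, 211 kb from its start, rose in iNKT1 cells (log2 change 1.96 ± 0.39 SE, limma adjusted p = 0.009), a call lost without Hivep3-/- replicate 2 (1.88).

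Some stretches held several called regions, a grouping looked for after their values were seen. Between Mtx2 and Hnrnpa3, all 3 called regions were lower in Hivep3-/- iNKT1 cells, by 1.73, 2.74 and 1.59 on the log2 scale, and in iNKT2 and iNKT17 cells each had a negative change as well (-1.83 to -0.64 and -1.11 to -0.47). Between Plk2 and Actbl2, 3 regions were lower in Hivep3-/- iNKT2 cells, by 2.90, 2.58 and 1.91, whereas the changes in iNKT1 cells were 0.79 and 0.30 at the first 2, which were not tested there, and 0.08 at the third, which was not called. Between Lmo4 and Hs2st1, 1 region was called lower in iNKT1 cells (-2.06) and 2 in iNKT2 cells (-3.69 and -2.59). Between Adtrp and Hivep1, a second region 102 kb from Adtrp rose by 2.44 in iNKT2 cells. Between 3110018I06Rik and Bcl11b, 2 regions rose in iNKT2 cells, by 1.65 and 1.97. The pairs of regions between Kcnk1 and Slc35f3 and between Gm26897 and Cryba4 were all lower in Hivep3-/- iNKT2 cells, with changes of -2.44 to -1.60.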

How the data were processed

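Accessibility was measured by Omni-ATAC-seq in 12 libraries. The authors trimmed reads to a fixed length (Trimmomatic 0.39 per the labels), aligned them to mm10, called peaks with the ENCODE pipeline, merged them into regions of 500 bp and counted insertions. The deposited values are log2 normalized insertions per kb after voom normalization by the authors. Read depth cannot be read from them, and the precision is limited by the number of libraries and, at low values, by a depth that differs between them.

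Distances were taken from GENCODE vM21, and bases from the RefSeq copy of GRCm38.p6 (mm10). Groups followed the labels. limma 3.58.1 in R 4.3.3 was fitted to all regions with a mean for each of the 6 groups, a trend in the variance and no block (6 residual degrees of freedom). Tests were two-sided, Benjamini-Hochberg adjustment ran over all regions tested in a comparison, and a call needed an adjusted p under 0.1 and a 3-fold difference. A region was tested where a compared group had a linear mean of at least 5. The fit was tested on simulated data with normal noise and changes placed at regions with a mean of at least 5. The coarse values near the floor are not covered by that test. Counts "against" a share give the percent called over all regions tested.

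The regions, gene lists and tests were chosen with earlier results of these data known. Named were, in each subset, the 3 largest rises and falls among called regions and the 4 specific regions with the largest margin over both other subsets, every region called in more than 1 subset, the 4 highest regions, the 8 nearest genes with the most regions, and the nearest genes in lists of T cell factors, cytokines and surface receptors. For list genes, the regions with the largest margin and those called between genotypes are given. Of the marker lists, 2 genes are not reported here and were left out of the sums. The stretches described were chosen after their values were seen. Same-numbered libraries deviated from their group means together, with correlations of 0.12 to 0.167 between subsets of a genotype and 0.113 to 0.171 between genotypes of a subset, so that numbers count as pairs by the values; the labels do not say what a number shares. Libraries with different subset and genotype had 0.091 to 0.174. Alternatives were the filter, a pseudocount on the linear scale, the fold, the definition of distal, the replicate block and leaving out each library.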

Additional observations from a re-analysis of the deposited data

Results flagged for a closer look

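The regions here are those named above whose change between genotypes differed between subsets in the interaction test of limma, each given as the change in the first subset minus that in the second on the log2 scale. Near Otud4 the difference between iNKT1 and iNKT2 was 4.87 (adjusted p = 0.00053) and between iNKT1 and iNKT17 4.20 (adjusted p = 0.00205). Near Smim15 these differences were 5.90 (adjusted p = 0.00108) and 5.06 (adjusted p = 0.0046). The rises near Otud4 and Smim15 were thus seen in iNKT1 cells and not in the other subsets.

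Between iNKT1 and iNKT2 the changes differed by 3.31 near Atp10a (adjusted p = 0.0463), 3.39 near Cited2 (adjusted p = 0.00952), 2.54 near Foxo1 (adjusted p = 0.0312) and 4.61 near Ttc27 (adjusted p = 0.0201). The difference was -2.66 near Ajap1 (adjusted p = 0.094) and -4.06 at the region 229 kb from Trib2 (adjusted p = 0.0113). Several of these regions stood near the lowest values in 1 of the subsets, where the size of a change is least sure.

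Between iNKT1 and iNKT17 the difference was 4.38 near Foxo1 (adjusted p = 0.00499), -1.63 near Mtx2 (adjusted p = 0.052), -2.03 near Hes1 (adjusted p = 0.0121) and -2.03 near Olfr1507 (adjusted p = 0.0647). Between iNKT2 and iNKT17 it was -6.01 near Ttc27 (adjusted p = 0.0169) and 2.34 near Prickle1 (adjusted p = 0.0252).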

How the results depend on the processing

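Of 205 recomputed counts, 149 stayed within 1.5 times the reported one, and no named change turned its direction. Without a filter, genotype calls for iNKT1, iNKT2 and iNKT17 were 95, 99 and 30, and with the filter on the mean over all libraries 16 in iNKT17. A pseudocount of 1 gave 27, 35 and 2 (interactions 118), and one of 5 gave 1, 2 and 0 (interactions 19), where 386 of 1498 regions in iNKT17 cells had an unadjusted limma p under 0.05 and 202 an adjusted p under 0.1 but none was 3-fold. A 2-fold threshold gave 131, 155 and 37 (interactions 314). With distal set at over 50 kb (4265 regions) genotype calls were 91, 109 and 11 and interactions 317, and at over 200 kb (751 regions) 24, 24 and 1 and 77. Leaving out each library gave 26 to 44, 45 to 62 and 4 to 10 genotype calls and 118 to 206 interactions.

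Regions specific to iNKT1, iNKT2 and iNKT17 in C57BL/6 were 109, 72 and 158 with the filter on the mean over all libraries, 52, 23 and 128 with a pseudocount of 5, 370, 268 and 488 at over 50 kb and 69, 64 and 124 at over 200 kb. In Hivep3-/- cells these were 126, 79 and 147, then 62, 23 and 113, then 397, 262 and 453, then 73, 68 and 111. At 2-fold, iNKT2 had 251 and 277. Leaving out each library gave 182 to 199, 141 to 154 and 271 to 279 in C57BL/6 and 195 to 207, 132 to 142 and 247 to 258 in Hivep3-/- cells. A pseudocount shrinks the fold of weak regions by construction, and the other causes were not tested.

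Of 32 named genotype changes, 21 were tested in all 9 settings beside the left-out libraries, and 1 of these was called in every run made. Of 54 named specific differences, 34 were so tested and 20 called in every run. The replicate block, which pairs libraries by number, changed no named call and moved no count by over 1.5 times (46, 59 and 6 genotype calls with the number as a term over all libraries, 47, 59 and 6 with it within each genotype, and 220 and 224 interactions).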
